A study of Mus musculus with 48 samples.

Results

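The clustered replication-dependent histone genes are the genes whose symbols start with Hist1h, Hist2h, Hist3h or Hist4h, and this name alone chose them. The deposited RNA table held 70 of them among 48321 rows, and 53 reached at least 1 TPM (a read count scaled for gene length and for the depth of the library) in at least 3 of 9 libraries, as did 16179 rows in all. By their symbols the 53 tested members belong to the linker histone H1 (5 of 6), and to the core histones H2A (13 of 20), H2B (14 of 19), H3 (9 of 12) and H4 (12 of 13). RefSeq lists the tested H2A rows Hist1h2aj and Hist1h2al as pseudogenes. Of these 53, 47 carry Hist1 names, which stand for the large cluster on chromosome 13, 3 belong to Hist2 on chromosome 3, 2 to Hist3 on chromosome 11 and 1 is Hist4h4 on chromosome 6.

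The RNA came from R1 cells, a male mouse embryonic stem cell line of strain 129SV, grown in serum-free 2i medium with LIF, where inhibitors of MEK and GSK3 keep the cells in a naive pluripotent state. Mll3 (Kmt2c) and Mll4 (Kmt2d) are large methyltransferases that place H3K4 monomethylation, mostly at enhancers. The 3 lines had the genotypes WT, Mll3/4 dKO (both genes knocked out) and Mll3/4 dCD (both proteins catalytically deficient), all on the R1 background and all grown in the same medium, with 3 libraries each. Each genotype is represented by 1 line, and the labels leave unsaid whether its libraries are separate cultures. The p-values therefore set the lines against a spread between libraries that may be only technical, and a clone cannot be told apart from its genotype.

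Replication-dependent histone genes supply the histones that package newly copied DNA, and their transcripts accumulate in S phase. Their mRNA normally ends in a conserved stem-loop without a poly(A) tail, formed by a cut that the stem-loop binding protein Slbp and the U7 small nuclear ribonucleoprotein direct. Some of these genes also make polyadenylated transcripts, for example when a cell leaves the cycle or when that cut fails. The RNA here was purified with oligo(dT) beads, which bind poly(A), so every level below is that of the RNA captured this way and not of all histone mRNA.

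The targeted genes and the libraries were looked at before the histones. For Kmt2c the values were 21.6, 19.7 and 21.9 TPM in WT, 7.995, 7.55 and 7.44 TPM in dKO and 28.6, 25.3 and 27.04 TPM in dCD, so the dKO libraries lay below all others, and for Kmt2d they were 67.4, 65.2 and 66.6 TPM in WT, 84.8, 80.5 and 83.5 TPM in dKO and 67.2, 54.6 and 67.8 TPM in dCD, so its RNA was not lower in dKO over the whole gene row. The labels do not say which exons were removed, so the Kmt2d row does not check the deletion. Depth ran from 21090624 to 56249770 reads per library, but the median tested histone gene held only 17 to 49 reads in a library, so counting error is a large part of the spread of the lower genes. The dKO replicate 1 library stood apart: it was the highest of the 9 for 39 of 53 members. Of 55 tested RNAs from a list of other transcripts that are made without a poly(A) tail (small nuclear and nucleolar RNAs, Rn7sk and the like), that library was the highest of the 9 for 25. The counts of members in the comparisons of dKO are therefore also given without it, and leaving it out moved no count of any other gene list in dKO against WT by more than 1. In bulk RNA, fewer cells in a phase of the cycle and less RNA per cell cannot be told apart.

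Many promoters of the members carry the letters by which this family is usually recognised, and the stretches of 6 genes named in the results are printed here. They are the 150 bases before the RefSeq start site (build GRCm38.p6), 5′ to 3′ on the gene's strand: Hist3h2ba at chr11:58948761-58948910 on the plus strand, Hist1h1b at chr13:21780626-21780775 on the minus strand, Hist1h1e at chr13:23622559-23622708 on the minus strand, Hist1h1c at chr13:23738657-23738806 on the plus strand, Hist1h4d at chr13:23581418-23581567 on the plus strand and Hist1h2af at chr13:23533725-23533874 on the plus strand. Capitals mark, on either strand, the letters TATAAA (a core promoter element), CCAAT (the box of that name), ATTTGCAT (the octamer bound by Oct factors), AAACACA (the H1 box) and GGTCC (of the H4 promoter).
Hist3h2ba: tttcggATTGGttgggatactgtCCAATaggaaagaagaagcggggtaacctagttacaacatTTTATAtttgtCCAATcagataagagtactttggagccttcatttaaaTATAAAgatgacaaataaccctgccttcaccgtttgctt
Hist1h1b: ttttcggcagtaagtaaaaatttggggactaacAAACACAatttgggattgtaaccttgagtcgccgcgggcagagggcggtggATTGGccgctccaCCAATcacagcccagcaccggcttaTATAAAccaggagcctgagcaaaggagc
Hist1h1e: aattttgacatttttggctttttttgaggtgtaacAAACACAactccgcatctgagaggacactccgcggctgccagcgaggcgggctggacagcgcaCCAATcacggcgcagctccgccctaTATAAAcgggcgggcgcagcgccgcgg
Hist1h1c: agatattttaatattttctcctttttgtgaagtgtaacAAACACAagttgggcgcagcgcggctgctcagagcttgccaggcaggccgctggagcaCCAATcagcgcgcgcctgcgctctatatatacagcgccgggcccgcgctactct
Hist1h4d: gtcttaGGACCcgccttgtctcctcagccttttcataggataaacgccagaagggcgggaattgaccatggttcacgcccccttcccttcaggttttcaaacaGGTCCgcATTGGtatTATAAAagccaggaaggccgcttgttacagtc
Hist1h2af: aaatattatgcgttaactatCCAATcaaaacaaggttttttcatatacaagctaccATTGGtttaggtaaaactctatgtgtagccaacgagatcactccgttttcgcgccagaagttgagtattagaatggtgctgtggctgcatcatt
Both Hist3h2ba and Hist1h1b, which were both far higher in dKO, hold TATAAA near the start and more than a single CCAAT, and the H1 genes share AAACACA upstream of CCAAT. Hist1h2af, the only member that was lower in dKO, holds CCAAT but no TATAAA in this stretch. Hist1h1c, which was higher, holds CCAAT and no exact TATAAA either, but it has the similar letters tatatata near the start. In the 250 bases before the start, TATAAA was found in 29 of 63 promoters of members, so its absence is common in the family. Only exact matches are marked, and whether these letters go with the direction of change was not tested.

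RefSeq gave 63 promoters for 62 of the 70 members, and the 250 bases before the start were searched for the same 5 motifs on both strands, each counted by itself, also where matches overlap. CCAAT was found in 52 of the 63, against 33.8% of all 32851 promoters: in 18 of 18 of H2A, 17 of 17 of H2B, 6 of 6 of H1, 8 of 10 of H3 and 3 of 12 of H4. TATAAA was found in 29, against 12.4% of all promoters, and in each class. ATTTGCAT was found in 14 (7 of H2A and 7 of H2B), against 1.60% of all. AAACACA was found in 5 of 6 promoters of H1 and in 9 of the 63, against 6.25% of all, and GGTCC in 11 of 12 of H4 and in 25 of the 63, against 39.8% of all. In 10 pairs an H2A and an H2B gene start in opposite directions less than 1000 bases apart, so their windows share bases and are not independent. The matches describe the letters of these windows and do not show binding.

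The first comparison asked how the histone genes stood in cells without Mll3 and Mll4. Most were higher in dKO than in WT: 43 of 53 (81.1%) were higher, 1 (Hist1h2af) was lower and 9 were not called, by limma on log2(TPM + 1) at an adjusted p under 0.05 over all tested genes. In the same comparison 43.4% of the 16179 tested genes were higher and 28.4% lower. The median log2 fold change of the members was 0.67, against 0.10 for all tested genes, with a range from -0.74 to 4.26. On the scale of TPM + 1, which understates changes of low genes, 13 members were at least 2-fold higher and 0 at least 2-fold lower. Of all tested genes 6.01% and 7.89% were. By the ratio of mean TPM further called members passed 2-fold, such as Hist3h2a at 3.92 and Hist1h4c at 2.39, while Hist1h2af was at 0.55. The replicate that stands apart matters for the count: without dKO replicate 1, 33 members were higher and 1 lower, with a median of 0.49. The filter also enters: 7 of the 53 (Hist2h2ac, Hist2h2be, Hist4h4, Hist3h2a, Hist1h3h, Hist1h2aj and Hist1h2be) reached 1 TPM in 3 libraries only with dKO included, and of the other 46 members 38 were higher and 1 lower in dKO (median 0.69). Hist2h2be and Hist1h2be are also among the 13 that were at least 2-fold higher. Hist3h2ba, another of the 13, reached 1 TPM in no WT library and was tested only through dKO and dCD.

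**Figure D1:**
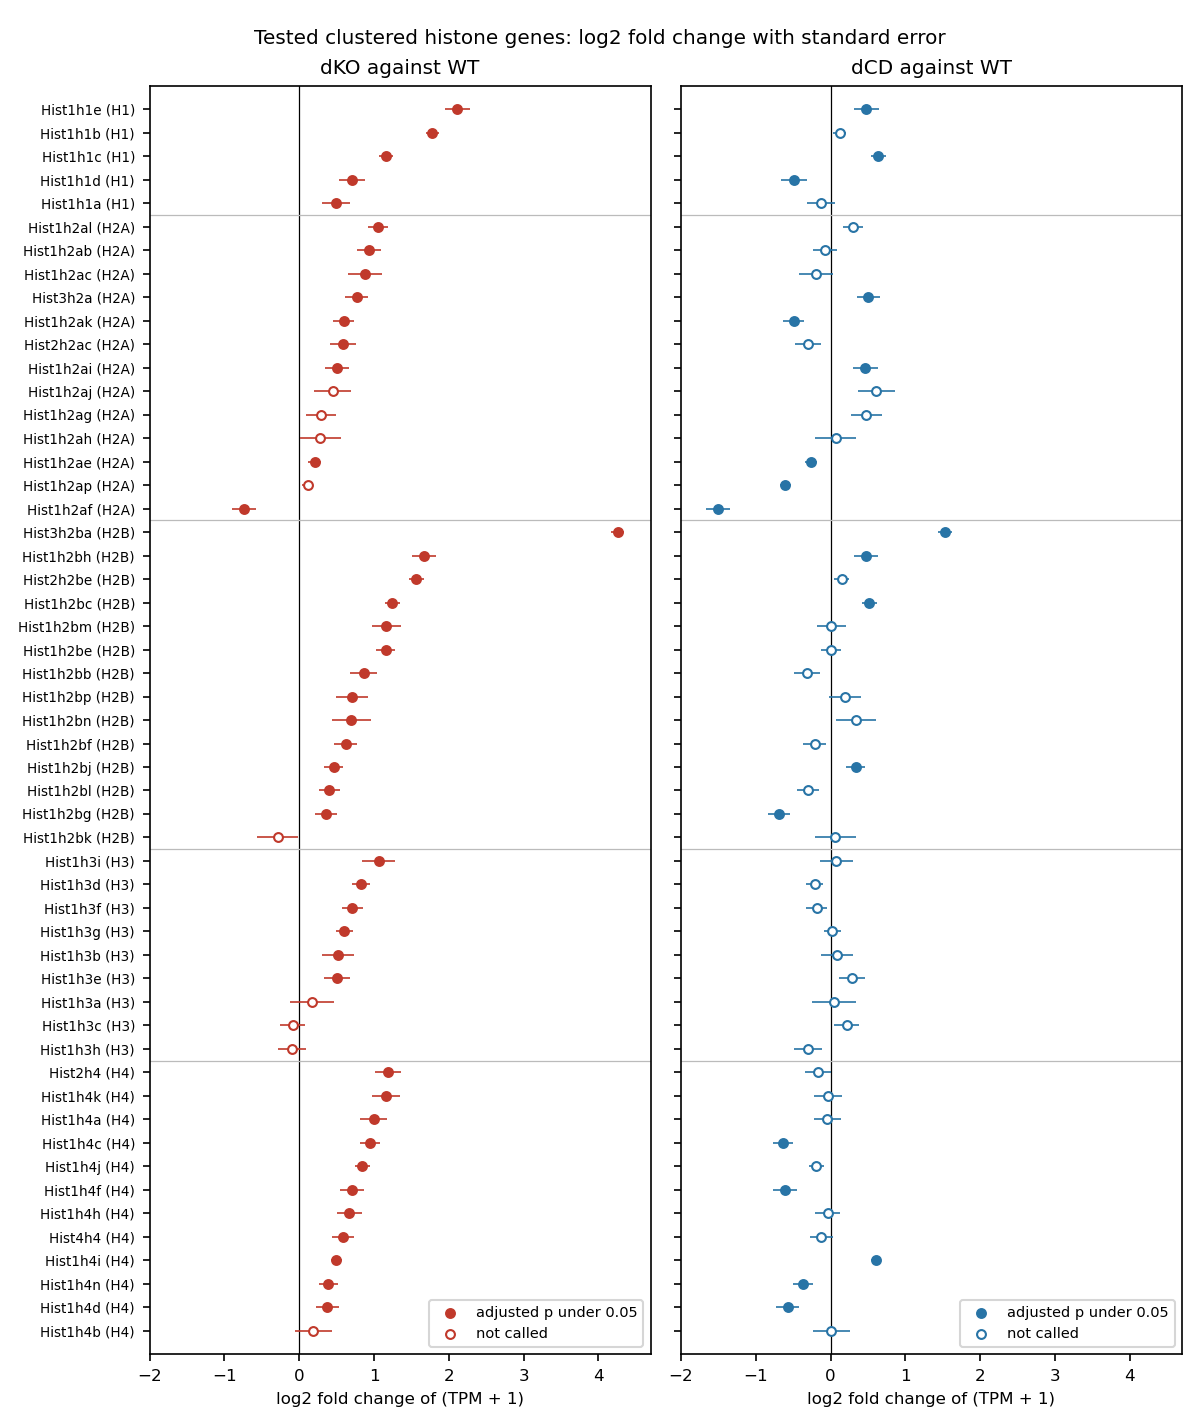
Log2 fold change of (TPM + 1) of the 53 tested members in dKO (left) and dCD (right) against WT, by class, with the standard error as a bar; filled points passed an adjusted p under 0.05. In dKO 43 points lie filled to the right of 0 and 1 to the left, while in dCD 9 lie filled to the right and 10 to the left.

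All 5 tested genes of the linker histone H1, which binds DNA where it enters and leaves the nucleosome, were higher in dKO (median log2 fold change 1.17), and 4 were without dKO replicate 1, where Hist1h1a was not called. Hist1h1e measured 5.67, 3.69 and 4.83 TPM in WT, 29.7, 23.7 and 18.6 TPM in dKO and 6.04, 7.31 and 7.41 TPM in dCD, giving a log2 difference of dKO from WT of 2.12 (adjusted p = 1e-06 by limma, SE 0.17). Hist1h1b measured 7.61, 6.99 and 7.82 TPM in WT, 32.9, 26.3 and 25.7 TPM in dKO and 8.68, 8.196 and 7.77 TPM in dCD, giving a log2 difference of dKO from WT of 1.78 (adjusted p = 2.6e-08 by limma, SE 0.087). In both genes the lowest dKO library was above every WT and dCD library, and the dCD libraries stood far nearer to WT. Against WT, dCD had a log2 difference of 0.48 (adjusted p = 0.0306 by limma) for Hist1h1e, a call lost in 5 of 16 alternative fits, and of 0.12 (adjusted p = 0.259 by limma) for Hist1h1b. Hist1h1c, the H1 gene with the highest mean level, measured 11.8, 12.2 and 11.4 TPM in WT, 33.5, 26.3 and 24.1 TPM in dKO and 19.02, 18.8 and 19.002 TPM in dCD, and here dCD lay between WT and dKO without overlap. Its log2 fold changes against WT were 1.17 (adjusted p = 1.38e-06 by limma, SE 0.095) in dKO and 0.64 (adjusted p = 0.000216 by limma, SE 0.095) in dCD. Hist1h1d measured 12.8, 12.9 and 12.04 TPM in WT, 28.99, 17.5 and 18.6 TPM in dKO and 9.54, 6.94 and 9.901 TPM in dCD. Against WT it was higher in dKO, by 0.71 (adjusted p = 0.00376 by limma, SE 0.17) on the log2 scale, and lower in dCD, with a log2 fold change of -0.48 (adjusted p = 0.0344 by limma, SE 0.17), and the 3 groups did not overlap. The dCD call of Hist1h1d was lost in 5 of 16 alternative fits, among them each one that left out a WT library. Hist1h1a was higher in dKO by the smallest amount of the class, 0.49 (adjusted p = 0.0338 by limma, SE 0.18), with libraries of dKO and WT that overlapped. This call was lost in 6 of 16 alternative fits.

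Of the 14 tested genes of H2B, which pairs with H2A in the nucleosome, 13 were higher in dKO (median 0.78, 10 without dKO replicate 1). On the scale of TPM + 1, 6 of them were at least 2-fold higher, among them Hist2h2be and Hist1h2be, which passed the filter only through dKO. Hist3h2ba, a gene of the small Hist3 cluster, changed most of all members and measured 0.419, 0.792 and 0.768 TPM in WT, 31.1, 30.1 and 30.6 TPM in dKO and 3.602, 3.87 and 3.84 TPM in dCD. Its dKO libraries lay close together, the dCD libraries lay clearly between, and no groups overlapped. The WT libraries held only 2, 6 and 3 reads of it and none reached 1 TPM, so its place above WT was tied to the filter. The log2 fold change was 4.26 (adjusted p = 5.17e-11 by limma, SE 0.088) in dKO against WT, 1.53 (adjusted p = 2.07e-07 by limma, SE 0.088) in dCD against WT and 2.73 (adjusted p = 1.45e-09 by limma, SE 0.088) in dKO against dCD. In the RefSeq table Hist3h2ba overlaps the predicted gene Gm51864, and without a stated strand setting reads of the overlap cannot be told apart.

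The other H2B genes changed by smaller amounts. Hist1h2bh measured 1.66, 1.05 and 1.21 TPM in WT, 6.66, 5.21 and 7.12 TPM in dKO and 1.66, 2.93 and 2.13 TPM in dCD, with a log2 difference of dKO from WT of 1.67 (adjusted p = 4.87e-06 by limma, SE 0.16). Hist2h2be, whose row is over 1000 bases long, measured 0.736, 0.743 and 0.4797 TPM in WT, 3.99, 3.67 and 4.001 TPM in dKO and 0.774, 0.827 and 0.877 TPM in dCD, with a log2 difference of dKO from WT of 1.57 (adjusted p = 1.67e-07 by limma, SE 0.098). In these genes every dKO library was above all WT and dCD libraries. Hist2h2be reached 1 TPM only in dKO libraries, so for it this separation followed from the filter. Hist1h2bc, the H2B gene with the highest mean level, measured 14.3, 15.98 and 17.9 TPM in WT, 44.6, 34.3 and 39.8 TPM in dKO and 21.5, 24.8 and 23.8 TPM in dCD, and its 3 groups were in the order WT, dCD, dKO without overlap. Its log2 fold changes against WT were 1.25 (adjusted p = 1.16e-06 by limma, SE 0.099) in dKO and 0.52 (adjusted p = 0.00124 by limma, SE 0.099) in dCD. Hist1h2bm measured 1.69, 2.55 and 2.06 TPM in WT, 6.102, 4.25 and 7.86 TPM in dKO and 2.42, 2.44 and 1.55 TPM in dCD and rose by 1.17 (adjusted p = 0.000297 by limma) on the log2 scale in dKO. Hist1h2be measured 0.646, 0.501 and 0.682 TPM in WT, 3.16, 2.47 and 2.19 TPM in dKO and 0.442, 0.637 and 0.795 TPM in dCD and rose by 1.16 (adjusted p = 1.76e-05 by limma), and it overlaps the predicted gene Gm33387 in the RefSeq table. For both, dCD overlapped WT while dKO stood above. Hist1h2be reached 1 TPM only in dKO libraries, so its place above the other lines also followed from the filter. Hist1h2bb measured 5.12, 4.13 and 3.13 TPM in WT, 10.002, 6.49 and 8.41 TPM in dKO and 2.45, 3.197 and 3.65 TPM in dCD and rose by 0.86 (adjusted p = 0.00125 by limma) in dKO. Hist1h2bg measured 19.9, 17.5 and 16.8 TPM in WT, 31.1, 19.3 and 21.5 TPM in dKO and 11.01, 9.95 and 11.6 TPM in dCD. It rose little in dKO, by 0.36 (adjusted p = 0.0444 by limma) with overlapping libraries, a call lost in 10 of 16 alternative fits and without dKO replicate 1, and fell in dCD with a log2 fold change of -0.69 (adjusted p = 0.00224 by limma), all 3 dCD libraries being lower than every WT library. Hist1h2bk was the H2B gene not called in dKO. Its levels were 4.59, 7.496 and 12.9 TPM in WT, 8.14, 5.52 and 5.08 TPM in dKO and 7.16, 9.11 and 8.17 TPM in dCD, and the WT libraries alone spanned the values of both other lines, while without WT replicate 1 it was called lower in dKO, at -0.61. The 5 remaining tested H2B genes (Hist1h2bp, Hist1h2bn, Hist1h2bf, Hist1h2bj and Hist1h2bl) were higher in dKO with log2 fold changes from 0.403 to 0.71. For Hist1h2bn and Hist1h2bl the dKO and WT libraries overlapped, and the calls were lost in 9 of 15 and 7 of 16 alternative fits.

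Genes of H2A were more mixed: 8 of 13 were higher in dKO, 1 was lower and 4 were not called (median 0.51; 6 higher and 1 lower without dKO replicate 1). Hist1h2al changed most and measured 9.86, 13.3 and 14.1 TPM in WT, 30.1, 27.02 and 23.2 TPM in dKO and 13.7, 17.5 and 15.1 TPM in dCD, giving a log2 difference of dKO from WT of 1.05 (adjusted p = 4.5e-05 by limma, SE 0.14). Hist1h2ab measured 2.99, 3.94 and 4.98 TPM in WT, 9.28, 7.27 and 8.77 TPM in dKO and 3.12, 4.58 and 3.36 TPM in dCD, giving a log2 difference of dKO from WT of 0.94 (adjusted p = 0.00035 by limma, SE 0.16). In both, dKO lay above WT and dCD without overlap, and RefSeq lists Hist1h2al as a pseudogene away from the cluster. Hist1h2ac measured 1.08, 1.704 and 1.32 TPM in WT, 2.44, 5.52 and 2.66 TPM in dKO and 0.774, 1.08 and 1.36 TPM in dCD and rose by 0.89 (adjusted p = 0.00513 by limma) in dKO. Hist1h2ak measured 10.8, 11.6 and 11.6 TPM in WT, 18.1, 18.01 and 16.7 TPM in dKO and 6.33, 6.83 and 10.6 TPM in dCD and rose by 0.59 (adjusted p = 0.00326 by limma), while it fell in dCD with a log2 fold change of -0.49 (adjusted p = 0.0124 by limma). Of the other higher H2A genes, Hist3h2a, Hist2h2ac, Hist1h2ai and Hist1h2ae had log2 fold changes from 0.21 to 0.77, and Hist3h2a overlaps Trim17 in the RefSeq table. Hist3h2a and Hist2h2ac passed the filter only with dKO included. The call of Hist1h2ae, whose dKO and WT libraries overlapped, was lost in 12 of 16 alternative fits, and that of Hist1h2ai in 3 of 16.

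A single H2A row held most of the histone signal. Hist1h2ap measured 945, 1085 and 897 TPM in WT, 1123, 1088 and 950.4 TPM in dKO and 645, 611 and 662 TPM in dCD, while the next highest member, Hist1h4d, did not pass 70 TPM in any library. WT and dKO overlapped, with a log2 fold change of 0.11 (adjusted p = 0.205 by limma, SE 0.075), so no change in dKO was called, while all dCD libraries lay below, with a log2 fold change against WT of -0.604 (adjusted p = 6.05e-05 by limma, SE 0.075). Many H2A genes of the cluster have near-identical copies, and the neighbouring Hist1h2an and Hist1h2ao held 0 and 2 reads over all libraries, and how reads with several matches were counted is not given in the sources used here. The share of reads that each copy received is therefore uncertain, and so is the level of Hist1h2ap itself.

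Hist1h2af went the other way and measured 9.98, 7.52 and 10.6 TPM in WT, 5.18, 6.08 and 4.33 TPM in dKO and 2.54, 3.36 and 2.07 TPM in dCD. The WT libraries were the highest, dKO lay below them and dCD lowest, with no overlap. The log2 fold change was -0.74 (adjusted p = 0.00166 by limma, SE 0.16) in dKO and -1.51 (adjusted p = 1.76e-05 by limma, SE 0.16) in dCD. Hist1h2ag measured 4.505, 3.34 and 2.92 TPM in WT, 5.33, 6.05 and 2.85 TPM in dKO and 4.94, 5.75 and 5.35 TPM in dCD and was not called in either line against WT. Hist1h2aj, a pseudogene in RefSeq, measured 0, 0.691 and 0.446 TPM in WT, 1.101, 0.287 and 1.31 TPM in dKO and 1.31, 0.8797 and 1.005 TPM in dCD, rests on few reads and was not called. Hist1h2ah was not called either, with a log2 fold change of 0.28 (adjusted p = 0.364 by limma, SE 0.27) in dKO.

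Of the 12 tested genes of H4, all of which encode one of the most conserved proteins known, 11 were higher in dKO and 1, Hist1h4b, was not called (median 0.69; 9 higher without dKO replicate 1). Hist2h4 measured 1.42, 1.79 and 1.64 TPM in WT, 6.81, 4.404 and 4.03 TPM in dKO and 0.905, 1.65 and 1.52 TPM in dCD, giving a log2 difference of dKO from WT of 1.19 (adjusted p = 0.000128 by limma, SE 0.18). Hist1h4k measured 4.94, 4.16 and 4.53 TPM in WT, 16.6, 10.05 and 8.86 TPM in dKO and 4.73, 3.64 and 4.91 TPM in dCD, giving a log2 difference of dKO from WT of 1.17 (adjusted p = 0.000236 by limma, SE 0.19). In both the dKO libraries were the 3 highest, replicate 1 well above the other two, and dCD overlapped WT. Hist1h4a measured 9.54, 12.2 and 9.33 TPM in WT, 27.6, 17.1 and 21.2 TPM in dKO and 8.89, 12.8 and 8.64 TPM in dCD and rose in dKO by 0.998 (adjusted p = 0.000563 by limma). Hist1h4j measured 2.49, 1.99 and 2.44 TPM in WT, 5.84, 4.57 and 4.46 TPM in dKO and 1.79, 2.0004 and 1.903 TPM in dCD and rose in dKO by 0.85 (adjusted p = 3.36e-05 by limma), while dCD again overlapped WT in both.

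The remaining named H4 genes had dKO above and dCD below WT. Hist1h4c, which rests on 4 to 11 reads per library in WT and dCD, measured 1.95, 2.26 and 2.39 TPM in WT, 6.54, 5.12 and 4.08 TPM in dKO and 0.933, 1.05 and 1.19 TPM in dCD, with log2 fold changes against WT of 0.95 (adjusted p = 9.5e-05 by limma, SE 0.13) in dKO and -0.64 (adjusted p = 0.00224 by limma, SE 0.13) in dCD. Hist1h4f measured 14.5, 15.6 and 13.3 TPM in WT, 30.1, 23.3 and 20.03 TPM in dKO and 7.07, 9.77 and 10.9 TPM in dCD, with 0.71 (adjusted p = 0.00226 by limma, SE 0.16) in dKO and -0.61 (adjusted p = 0.00744 by limma, SE 0.16) in dCD. Hist1h4d, the H4 gene with the highest mean level, measured 44.1, 39.2 and 45.6 TPM in WT, 69.02, 51.5 and 49.2 TPM in dKO and 22.3, 31.5 and 33.1 TPM in dCD. It had 0.38 (adjusted p = 0.0495 by limma, SE 0.15) in dKO, which was lost without dKO replicate 1 and in 11 of 16 alternative fits in all, and -0.57 (adjusted p = 0.00918 by limma, SE 0.15) in dCD. In these 3 genes no libraries of different lines overlapped. The other 4 higher H4 genes, Hist1h4h, Hist4h4, Hist1h4i and Hist1h4n, had log2 fold changes in dKO from 0.39 to 0.67. The call of Hist1h4n was lost in 6 of 16 alternative fits, and Hist4h4 passed the filter only with dKO included.

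Genes of H3, the histone whose lysine 4 Mll3 and Mll4 methylate, were higher in dKO in 6 of 9 cases, with none lower (median 0.52; 4 higher without dKO replicate 1). Hist1h3i measured 2.81, 3.35 and 2.29 TPM in WT, 10.7, 6.396 and 4.76 TPM in dKO and 3.14, 2.51 and 3.44 TPM in dCD, giving a log2 difference of dKO from WT of 1.06 (adjusted p = 0.00144 by limma, SE 0.22). Hist1h3d measured 5.74, 5.79 and 4.77 TPM in WT, 11.1, 9.03 and 11.1 TPM in dKO and 5.101, 3.69 and 4.95 TPM in dCD, giving a log2 difference of dKO from WT of 0.82 (adjusted p = 9.97e-05 by limma, SE 0.12). Each dKO library of both was above every WT and dCD library. Hist1h3c, the H3 gene with the highest mean level, measured 19.97, 22.6 and 20.2 TPM in WT, 26.1, 19.02 and 15.1 TPM in dKO and 20.4, 27.7 and 26.03 TPM in dCD, and Hist1h3h measured 0.938, 1.38 and 1.15 TPM in WT, 1.57, 0.492 and 1.12 TPM in dKO and 0.897, 0.753 and 0.574 TPM in dCD. The libraries of dKO overlapped those of WT in both, and neither these 2 genes nor Hist1h3a were called. Hist1h3f, Hist1h3g, Hist1h3b and Hist1h3e were higher in dKO with log2 fold changes from 0.51 to 0.71. The call of Hist1h3b, whose dKO and WT libraries overlapped, was lost in 13 of 15 alternative fits. That of Hist1h3e was lost in 5 of 16.

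**Figure D2:**
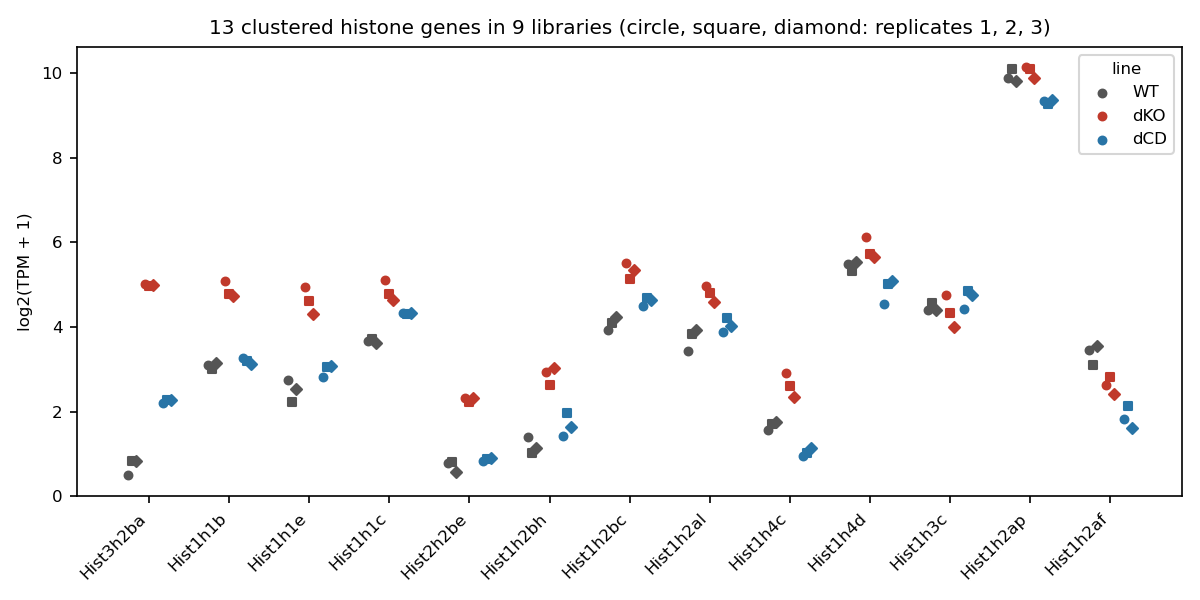
Level of 13 members as log2(TPM + 1) in each of the 9 libraries, with WT in grey, dKO in red and dCD in blue; marker shape gives the replicate. Hist3h2ba and Hist1h1b have dKO far above both other lines, Hist1h2ap has dCD below WT and dKO, and Hist1h2af has WT highest.

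The second comparison asked how the same genes stood where Mll3 and Mll4 were catalytically deficient. No common direction appeared in dCD against WT: 9 of 53 members were higher, 10 lower and 34 not called, while 28.9% of the 16179 genes were higher and 29.5% lower. The median log2 fold change was 0.01, against -0.01 for all tested genes, and it was -0.04 after quantile normalization and -0.02 on recovered reads with voom, so its sign depended on the scaling. On the scale of TPM + 1, Hist3h2ba was at least 2-fold higher and Hist1h2af at least 2-fold lower, where 4.62% and 2.32% of all tested genes were. By the ratio of mean TPM, the called genes Hist3h2a, at 2.79, and Hist1h4c, at 0.48, also passed 2-fold. Higher were Hist1h1c, Hist1h1e, Hist1h2ai, Hist1h2bc, Hist1h2bh, Hist1h2bj, Hist1h4i, Hist3h2a and Hist3h2ba. Neither Hist3h2a nor Hist3h2ba reached 1 TPM in any WT library, so their being above WT was tied to the filter. Hist3h2a and Hist1h2aj passed it only with dCD included, and of the other 51 members 8 were higher and 10 lower (median -0.04). Lower were Hist1h1d, Hist1h2ae, Hist1h2af, Hist1h2ak, Hist1h2ap, Hist1h2bg, Hist1h4c, Hist1h4d, Hist1h4f and Hist1h4n. By class, H1 had 2 higher and 1 lower, H2A 2 and 4, H2B 4 and 1 and H4 1 and 4, while none of the 9 tested H3 genes was called, nor passed an unadjusted p under 0.05. Under the alternatives Hist1h3h was called lower after quantile normalization and Hist1h3e higher without dKO replicate 1. The count of higher members fell to 4 without dCD replicate 2, to 5 without dCD replicate 3 and to 6 without WT replicate 3, counting also members gained. The tests against WT of dKO and dCD share the WT libraries, so their values are set side by side here without a measure of likeness.

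The third comparison set the line without Mll3 and Mll4 against the line with catalytically deficient proteins. Against dCD, 37 of 53 members (69.8%) were higher in dKO, 0 lower and 16 not called, where 42.3% of the 16179 genes passed in the first direction and 27.04% in the other. The filter enters here too, since 7 of the 53 passed it only with dKO included. Of the other 46 members 33 were higher and 0 lower (median 0.76). No member was lower by limma, nor at an unadjusted p under 0.05, and 1 was by voom on recovered reads (Hist1h3c) and after median-ratio scaling or quantile normalization (Hist1h4i). The median log2 fold change of the members was 0.76, against 0.10 for all tested genes. On the scale of TPM + 1, 20 were at least 2-fold higher and 0 at least 2-fold lower, where 3.603% and 7.36% of all tested genes were. Hist2h2be and Hist1h2be, which passed the filter only through dKO, are among the 20. By class, 5 of 5 H1 genes, 8 of 13 H2A, 10 of 14 H2B, 4 of 9 H3 and 10 of 12 H4 genes were higher. After Hist3h2ba the differences were largest for Hist1h1b, 1.66 (adjusted p = 5.74e-08 by limma, SE 0.087), and Hist1h1e, 1.64 (adjusted p = 8.69e-06 by limma, SE 0.17), followed by Hist1h4c, 1.59 (adjusted p = 2.26e-06 by limma, SE 0.13). Without dKO replicate 1, 37 members were higher and 1, Hist1h3c, was lower, and the same 37 were called.

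Summed over a class, the levels showed which part of the family carried the difference. Without Hist1h2ap, the members summed to 377 ± 10.7 TPM in WT, 662 ± 110.2 TPM in dKO and 365 ± 27.9 TPM in dCD (SD, n = 3). H1 summed to 47.6 ± 1.28, 119 ± 23.4 and 53.1 ± 1.87 TPM in WT, dKO and dCD, the dKO mean being 2.50 times that of WT. H2B summed to 73.6 ± 4.75, 162 ± 24.7 and 78.4 ± 4.09 TPM, with a ratio of dKO to WT of 2.20. Hist3h2ba is part of this H2B sum and averaged 0.66, 30.6 and 3.77 TPM, so 1 row made a sizeable part of the H2B difference. H4 summed to 103.7 ± 1.55, 168 ± 35.6 and 84.9 ± 10.1 TPM (ratio 1.62), H2A without Hist1h2ap to 87.1 ± 4.69, 123 ± 11.7 and 77.5 ± 6.82 TPM (1.41), and H3 to 65.2 ± 1.32, 91.4 ± 20.3 and 71.1 ± 8.70 TPM (1.40). In each of these sums every dKO library was above every WT and dCD library, and for H1, H2B, H3 and H4 the replicate that stands apart was well above the others of dKO. With Hist1h2ap included, all members summed to 1353 ± 91.3, 1716 ± 186 and 1005 ± 34.0 TPM, so that 1 row set most of the total. These sums are descriptions and were not tested.

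**Figure D3:**
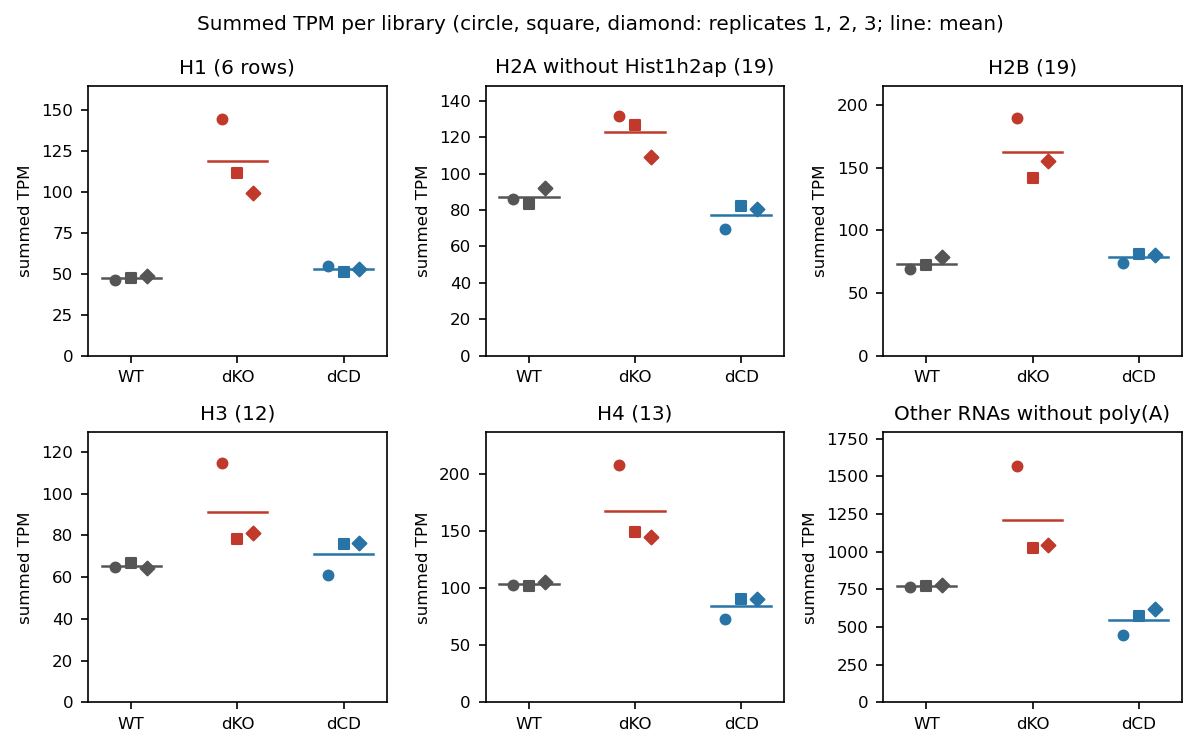
Summed TPM per library for H1, H2A without Hist1h2ap, H2B, H3 and H4 and for the list of other RNAs made without a poly(A) tail; each point is a library, the marker shape its replicate and the line the mean of 3. In all 6 panels the 3 dKO libraries are the highest, with replicate 1 (circle) on top, and in the last panel dCD lies below WT.

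Other RNAs made without a poly(A) tail are given beside the histones because the capture used oligo(dT). Of 173 rows in this list 55 were tested and 100 were at 0 in every library. Most of the 55 were not called. In dKO against WT 14 were higher and 1 lower (median log2 fold change 0.46), in dCD against WT 2 were higher and 14 lower (median -0.19), and in dKO against dCD 21 were higher and 1 lower (median 0.41). Higher in dKO were thus 25.5% and lower 1.82%, where 43.4% and 28.4% of all tested genes were. In dCD 3.64% were higher and 25.5% lower, where 28.9% and 29.5% of all tested genes were. Against dCD 38.2% were higher in dKO and 1.82% lower, where 42.3% and 27.04% of all tested genes were. Their TPM summed to 765, 769.7 and 778 in WT, to 1571, 1026 and 1041 in dKO and to 448, 575 and 617 in dCD. Snord118, the U8 RNA of ribosomal RNA processing, had log2 fold changes of 0.77 (adjusted p = 0.000459 by limma) in dKO and -1.38 (adjusted p = 1.11e-05 by limma) in dCD. Rn7sk, which holds back the elongation factor P-TEFb, was 1.53 (adjusted p = 3.81e-05 by limma) higher in dKO than in dCD. Terc, the telomerase RNA, was higher in both lines, by 0.82 (adjusted p = 0.00013 by limma) and 0.53 (adjusted p = 0.0036 by limma), and Snord82 was lower in dKO, -1.22 (adjusted p = 0.0442 by limma). Without dKO replicate 1, 13 of the list were higher and 1 lower against WT. The part that carry-over of RNA without a poly(A) tail has in the histone values was not tested.

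Row length and depth were looked at by themselves. Of the 6 tested members with rows of 1000 bases or more, Hist1h2be, Hist4h4, Hist2h2be and Hist3h2a passed the filter only with dKO included. Their being higher there was thus close to a condition of being tested. Hist3h2a needed dCD as well. The remaining pair, Hist2h4 and Hist1h1c, was also higher in dKO. Of the 19 members with a mean of 50 reads or more per library 17 were higher in dKO and none lower (median 0.71), and of the 34 with fewer reads 26 were higher and 1 lower (median 0.65).

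Along the chromosomes the higher values in dKO were spread over the clusters. The 47 tested Hist1 genes had 37 higher and 1 lower with a median of 0.62, while 526 other tested genes of chromosome 13 had 270 higher and 117 lower with a median of 0.18. Of the members outside Hist1, Hist2h4 reached 1 TPM in every WT library and was higher in dKO. Hist3h2ba, also higher, stayed below 1 TPM in every WT library, so it was tested only through dKO and dCD. Hist2h2ac, Hist2h2be, Hist3h2a and Hist4h4, also higher, passed the filter only with dKO included, and Hist3h2a needed dCD as well. Genes next to each other could differ: Hist1h2af, lower in dKO, stood between Hist1h4h at 0.67 and Hist1h3g at 0.61. In 5 of the 10 head-to-head pairs both genes were tested. Their log2 fold changes in dKO were 0.40 and 0.51 for Hist1h2bl and Hist1h2ai, 0.59 and 0.70 for Hist1h2ak and Hist1h2bn, 0.29 and 0.46 for Hist1h2ag and Hist1h2bj, 0.21 and 0.36 for Hist1h2ae and Hist1h2bg, and 0.28 and -0.29 for Hist1h2ah and Hist1h2bk. In dCD 2 of these pairs had 1 gene on each side of WT, with 1 of the genes called: Hist1h2bl at -0.301 (adjusted p = 0.0933 by limma) and Hist1h2ai, called, at 0.47 (adjusted p = 0.0302 by limma), and Hist1h2ak, called, at -0.49 (adjusted p = 0.0124 by limma) and Hist1h2bn at 0.34 (adjusted p = 0.303 by limma).

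**Figure D4:**
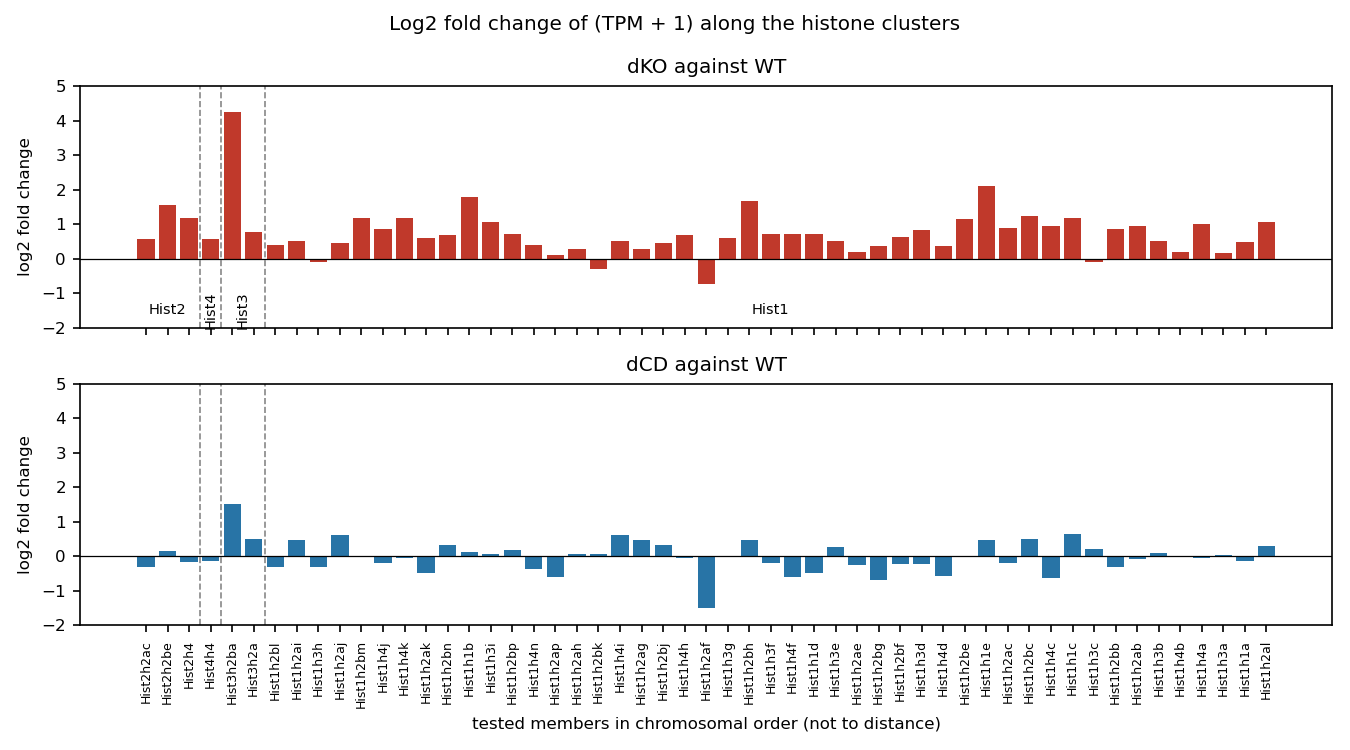
Log2 fold change of (TPM + 1) of the 53 tested members in dKO (top) and dCD (bottom) against WT, in chromosomal order within the Hist2, Hist4, Hist3 and Hist1 loci; bars are equally spaced and not to distance. Positive values in dKO are found at all 4 loci, with Hist3h2ba at 4.26 the tallest, and Hist1h2af is negative in both panels.

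Variant and linker histones that are encoded outside these clusters were set beside them. Of 11 tested, 8 were higher in dKO and 3 lower (median 0.34), and in dCD 6 were higher and 2 lower (median 0.10). These were 72.7% and 27.3% in dKO and 54.5% and 18.2% in dCD. Of all tested genes 43.4% and 28.4% were in dKO, and 28.9% and 29.5% in dCD. H1f0, the linker histone of cells that leave the cycle, rose in dKO by 1.52 (adjusted p = 6.34e-11 by limma), H1fx by 1.27 (adjusted p = 5.5e-10 by limma) and H3f3b, a source of H3.3, by 0.55 (adjusted p = 7.55e-08 by limma), while H2afy2, a macroH2A gene, fell with -0.45 (adjusted p = 1.3e-06 by limma). In dCD H3f3b was also higher, 0.47 (adjusted p = 5.34e-07 by limma), and Cenpa, the centromere variant of H3, lower, -0.28 (adjusted p = 7.81e-06 by limma). Transcripts of such variants are mostly polyadenylated.

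Factors that make and process histone mRNA changed by small amounts. Of 23 tested, 16 were higher in dKO and 4 lower (median 0.27), 5 were higher in dCD and 9 lower (median 0.01), and 19 were higher in dKO than in dCD and 1 lower (median 0.20). These were 69.6% and 17.4% in dKO, 21.7% and 39.1% in dCD, and 82.6% and 4.35% in dKO against dCD. Of all tested genes 43.4% and 28.4%, 28.9% and 29.5%, and 42.3% and 27.04% were. Zcchc11, which adds uridines to RNA ends, rose in dKO by 0.46 (adjusted p = 2.35e-07 by limma), Ncbp1 of the cap-binding complex by 0.36 (adjusted p = 1.45e-06 by limma) and Cpsf2, of the cleavage complex, by 0.31 (adjusted p = 1.64e-06 by limma), and Cstf2t fell with -0.29 (adjusted p = 5.08e-06 by limma). In dCD Upf1, a helicase of RNA decay, was lower, -0.32 (adjusted p = 1.21e-05 by limma). Lsm11, a protein of the U7 particle, was higher in dKO than in dCD, 0.402 (adjusted p = 1.31e-05 by limma). Slbp and Npat, the activator of histone gene transcription, are named for their roles and with their values known: Slbp measured 45.6, 44.04 and 43.5 TPM in WT, 50.4, 50.8 and 51.3 TPM in dKO and 42.6, 41.8 and 39.6 TPM in dCD, and Npat 29.9, 30.6 and 33.3 TPM in WT, 38.02, 39.6 and 40.6 TPM in dKO and 33.2, 32.8 and 30.9 TPM in dCD. Slbp was higher in dKO, 0.19 (adjusted p = 0.000377 by limma), and lower in dCD, -0.101 (adjusted p = 0.0237 by limma). Npat was higher in dKO, 0.32 (adjusted p = 0.000103 by limma), and its dCD value against WT was 0.05 (adjusted p = 0.43 by limma). Histone chaperones had 13 of 20 higher and 4 lower in dKO (9 and 6 after median-ratio scaling) and 6 higher and 5 lower in dCD (6 and 3 after quantile normalization). These were 65% and 20% in dKO and 30% and 25% in dCD, the dCD shares being near those of all tested genes. Hjurp, which loads Cenpa, rose in dKO by 0.58 (adjusted p = 4.8e-08 by limma), and Rbbp7 was higher in dCD by 0.91 (adjusted p = 3.28e-09 by limma).

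Cell cycle genes were examined because histone mRNA follows S phase. Genes of DNA replication had 10 of 32 higher and 14 lower in dKO (median -0.06; 5 and 21 after median-ratio scaling, median -0.16) and 3 higher and 22 lower in dCD (median -0.16). Their shares higher and lower were 31.25% and 43.75% in dKO and 9.375% and 68.75% in dCD. For all tested genes these shares were 43.4% and 28.4% in dKO and 28.9% and 29.5% in dCD. Mcm10, a factor of replication initiation, was lower in both, -0.55 (adjusted p = 9.34e-09 by limma) and -0.295 (adjusted p = 2.33e-06 by limma), and Orc1 of the origin recognition complex was lower in dKO, -0.63 (adjusted p = 2.98e-08 by limma). Of 26 tested genes of G1/S control, 19 were higher in dKO and 4 lower (median 0.51), and 9 were higher in dCD and 12 lower (median 0.05). These were 73.1% and 15.4% in dKO and 34.6% and 46.2% in dCD. Ccnd1, a cyclin of G1, rose in dKO by 2.29 (adjusted p = 6.96e-13 by limma), and the cyclin-dependent kinase inhibitors Cdkn1a and Cdkn2a rose by 1.72 (adjusted p = 1.54e-11 by limma) and 1.58 (adjusted p = 2.92e-11 by limma), while Cdk2 fell with -0.73 (adjusted p = 2.8e-09 by limma). Mitotic genes had 18 of 20 higher and none lower in dKO (median 0.29; 17 and 2 after median-ratio scaling), among them Mki67, 0.89 (adjusted p = 2.06e-09 by limma), and Plk1, 0.63 (adjusted p = 1.17e-08 by limma). In dCD 8 were higher and 2 lower (9 and 4 with voom). The shares of mitotic genes higher and lower were 90% and 0% in dKO and 40% and 10% in dCD. The share of cells in each phase was not measured in these libraries, and its part in the histone values was not tested.

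Markers of cell identity also moved between the lines. All 15 embryonic stem cell markers were tested. Their TPM summed to between 17361 and 17820 in WT, 9272 and 9359 in dKO and 13107 and 13477 in dCD, with 13 lower and 1 higher in dKO and 12 lower and 2 higher in dCD. Dppa5a alone averaged 6433 TPM in WT, 1199 TPM in dKO and 4909 TPM in dCD, so 1 row set much of the differences between these sums. In dKO against dCD 8 of the markers were lower and 5 higher. Lower and higher were thus 86.7% and 6.67% in dKO, 80% and 13.3% in dCD, and 53.3% and 33.3% in dKO against dCD. Of all tested genes 28.4% and 43.4%, 29.5% and 28.9%, and 27.04% and 42.3% were. Dppa5a was lower in dKO, -2.42 (adjusted p = 1.53e-12 by limma), and Klf4 was higher, 0.76 (adjusted p = 4.26e-09 by limma). Of 14 fibroblast and feeder cell markers 8 were tested, and their sum was 116 to 119.5 TPM in WT, 218 to 229 TPM in dKO and 152 to 153 TPM in dCD. Fstl1 made most of the dKO sum, and without it the sums were 32.7 to 35.6, 36.1 to 38.9 and 72.6 to 74.9 TPM, with dCD highest. Among the 8, 5 were higher and 2 lower in dKO, and 6 higher and 1 lower in dCD, with Col1a1 higher in both, 2.94 (adjusted p = 6.86e-11 by limma) and 2.55 (adjusted p = 6.03e-10 by limma), Col5a1 lower in dKO, -0.93 (adjusted p = 1.4e-08 by limma), and none of the 14 was at 0 in every library. Of the 8 tested, 62.5% were higher and 25% lower in dKO, and 75% and 12.5% in dCD. The part of these marker differences in the histone values was not tested.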

How the data were processed

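RNA-seq was analysed from 9 libraries of 3 mouse embryonic stem cell lines. Samples of the other assays were not analysed here. The authors deposited TPM values per gene and library with a gene length. Per the submitters' processing notes, HISAT2, featureCounts and DESeq2 were used with the mm9 build, with no roles or versions. What annotation and strand setting were used, and how multi-mapped reads were handled, is not given in the sources used here. Multiplied by the gene length, 100% of the deposited TPM values were whole multiples (within 0.01) of a step constant within a library, which gave whole reads per gene. Between replicates of a line the chi-square per degree of freedom of these reads was 1.58 to 4.14, so none was a copy of another.

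The test was limma 3.58.1 in R 4.3.3, on genes with at least 1 TPM in at least 3 libraries (lmFit, eBayes with trend) on log2(TPM + 1), with 9 libraries in 1 fit, 3 contrasts, two-sided tests and Benjamini-Hochberg adjustment over 16179 genes at 0.05. Fold changes on this scale understate those of low genes. The fit was tested on simulated data. Python 3.11.15 with numpy 2.4.6, pandas 2.3.3 and matplotlib 3.10.9 made the tables and plots. All 70 members matched a RefSeq GRCm38.p6 table, which gave chromosomes, order and overlaps, and promoters came from RefSeq.

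The members and gene lists were chosen with earlier results of these data known. Named with every value were, per class, the tested member of highest mean TPM, per contrast the 3 members of largest and the 3 of smallest fold change, and members called with at least a 2-fold change, and up to 4 called genes per list and contrast by p. Alternatives were a pseudocount of 0.1, no filter or 5 TPM, median-ratio or quantile scaling, voom on recovered reads, a replicate block, each library left out, centring by chromosome and a 2-fold threshold.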

Additional observations from a re-analysis of the deposited data

How the results depend on the processing

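In dKO against WT the members' median stayed between 0.49 and 0.84 and more members were higher than lower under every alternative run. Higher were 28 at a minimum of 5 TPM (34 members tested) and 13 at the 2-fold threshold, and lower 0 at that threshold; the fewer genes tested or the stricter threshold account for these. The median was 0.84 with a pseudocount of 0.1 and 0.49 when centred on the other genes of the chromosome. After median-ratio scaling, which moved the median of all genes from 0.10 to 0.01, 34 were higher. In dCD against WT 5 were higher without a filter, and 1 higher and 1 lower at the 2-fold threshold. In dKO against dCD 20 were higher at that threshold, 1 was lower after median-ratio scaling, quantile normalization or voom, and the median was 0.96 with a pseudocount of 0.1. Leaving out 1 library gave, for dKO against WT, 33 to 44 higher, 1 to 2 lower and a median of 0.49 to 0.76; for dCD against WT, 4 to 11, 7 to 12 and -0.09 to 0.04; and for dKO against dCD, 37 to 40, 0 to 1 and 0.67 to 0.85. The cause of these shifts was not tested. Of 1133 values of named genes under the alternatives, 39 lost and 5 gained the call, and 3 uncalled values changed sign. Hist1h2ag in dKO against dCD went from -0.19 to 0.076 without dKO replicate 3, Hist1h2bk in dKO against WT from -0.29 to 0.049 without WT replicate 3, and Hist1h3h in dKO against WT from -0.09 to 0.12 without dKO replicate 2. With 1 library left out, their lowest values were -0.36, -0.61 and -0.27, where Hist1h2bk was called lower without WT replicate 1. Replicate numbers are shared between lines, but same-numbered libraries correlated at -0.049 to 0.042 in their deviations from the line means, so the numbers do not pair them. With the replicate block 40 members were higher and 1 lower in dKO against WT, 9 and 10 in dCD against WT, and 38 and 0 in dKO against dCD. Summing members of identical protein was not run. Depth limits the low members, since the median member held 17 to 49 reads per library, and calls that rest on a few reads are less certain.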

Other observations

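Of the 70 members 17 did not reach 1 TPM in 3 libraries. No read was counted in any library for 8 of them (Hist2h2aa1, Hist2h2aa2, Hist2h3c1, Hist2h3b, Hist2h2bb, Hist1h2an, Hist1h2ad and Hist1h2ba). The other 9 (Hist2h2ab, Hist2h3c2, Hist3h2bb-ps, Hist1h2bq, Hist1h2ao, Hist1h4m, Hist1h2br, Hist1h1t and Hist1h2aa) had some reads and stayed at or below 1.24 TPM in every library. The promoter windows of Hist1h2bq and Hist1h2br had 100% identical bases; their transcripts were not compared.

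Hist1h1t, the H1 gene of the testis, had 0 reads in the 3 WT libraries together, 17 in dKO (7, 4 and 6) and 7 in dCD (1, 3 and 3). Per read of depth it was 5.58-fold higher in dKO than in WT when a floor of 3 counts was taken for the WT group. The counting error of the 17 dKO reads is not part of this value. Hist1h1t was not among the tested genes, so the difference has no adjusted p.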
